A study of Mus musculus with 2 samples.

Results

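The miR-130/miR-301 and miR-148/miR-152 families are closely related groups of microRNAs (miRNAs), the short non-coding RNAs that lower the output of target mRNAs. Their 7 members on the array were taken by name, namely mmu-miR-130a-3p, mmu-miR-130b-3p, mmu-miR-301a-3p and mmu-miR-301b-3p for miR-130/miR-301, and mmu-miR-148a-3p, mmu-miR-148b-3p and mmu-miR-152-3p for miR-148/miR-152. They are 7 of 1881 mouse miRNAs on the array, read by 16 of 4415 miRNA probes and 210 of 56430 miRNA spots on each array. The study asked what mesenchymal stem cells derived from bone marrow (BMSCs, stromal cells with several possible fates) pack under hypoxia into exosomes, the small vesicles that cells release. Murine BMSCs of the C57BL/6 strain, bought from a supplier and without a reported genetic alteration, were grown in MEM with 10% fetal calf serum, which the study depleted of exosomes. The normoxia group was kept for 72 h in normoxia, at an oxygen level that the labels do not give, and the hypoxia group for 72 h at 0.2% oxygen. Exosomal RNA of each group was labelled with Cy3 and hybridised to 1 Agilent mouse miRNA array with 1 colour. Each condition is therefore a single sample of cultured cells, and no value has a biological replicate or a test. An array also cannot tell more exosomes from more copies of a miRNA in each exosome.

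A miRNA finds its targets mainly through its seed, the bases from 2 to 8 counted from the 5′ end, and miRNAs with one seed are grouped as a family because they share most predicted targets. The miR-130/miR-301 family is known for repressing Pparg, the master transcription factor of fat cell formation, which is one of the fates of marrow stromal cells. The miR-148/miR-152 family is known for repressing Dnmt1, the enzyme that maintains DNA methylation.

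The mature sequences are shown because the families are defined by them and because their likeness limits how far an array separates the members. Of the 7 members, 6 matched a mature entry of the RefSeq table (GRCm38.p6), all but mmu-miR-301b-3p. Capitals mark the seed, and the first 3 sequences have the seed of miR-130/miR-301 and the last 3 that of miR-148/miR-152.
mmu-miR-130a-3p: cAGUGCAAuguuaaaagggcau
mmu-miR-130b-3p: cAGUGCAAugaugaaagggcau
mmu-miR-301a-3p: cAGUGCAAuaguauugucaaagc
mmu-miR-148a-3p: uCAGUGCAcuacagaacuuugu
mmu-miR-148b-3p: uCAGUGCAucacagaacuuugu
mmu-miR-152-3p: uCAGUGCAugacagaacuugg

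The families have different seeds that share a run of 6 bases, AGUGCA, moved by a single base. With base 1 of miR-130a-3p, which lies outside its seed, the run is longer. Bases 1 to 7 of miR-130a-3p and bases 2 to 8 of miR-148a-3p are both CAGUGCA, a shared run of 7 bases. Inside the families the members differ mainly after the seed. With positions counted from 1 at the 5′ end and the first-named miRNA's base first, miR-130a-3p and miR-130b-3p had 20 of 22 bases the same and differed by U11A and A13G. miR-148a-3p and miR-148b-3p also had 20 of 22 the same and differed by C9U and U10C. miR-148b-3p and miR-152-3p had 19 of 21 the same and differed by C10G and U20G. miR-301a-3p was further from its family, with 12 of 22 bases the same as in miR-130a-3p. Members this alike are uncertain as separate measurements, and cross-hybridisation between them was not tested.

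Genome positions are those of GRCm38.p6. The mature miR-130a-3p lies at chr2:84741116-84741137 on the minus strand, outside the bounds of any other gene of the table. miR-130b-3p lies at chr16:17124071-17124092 on the minus strand, inside the bounds of 2610318N02Rik, where Mir301b is its neighbour. miR-301a-3p lies at chr11:87113054-87113076 on the plus strand within Ska2, a gene of the spindle and kinetochore complex. miR-148a-3p lies at chr6:51269829-51269850 on the minus strand within the predicted gene Gm38821. miR-148b-3p lies at chr15:103285185-103285206 on the plus strand within Copz1, and miR-152-3p at chr11:96850439-96850459 on the plus strand within Copz2. Copz1 and Copz2 are paralogs that encode the zeta subunit of the coatomer, a coat of transport vesicles. The table gives gene bounds only, so exon or intron is not stated.

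Of the 7 members, 6 were detected on both arrays and 1, miR-301b-3p, on neither. Over the whole array 9.57% of miRNAs were detected on both. Detection of a probe required over 50% of its spots to exceed background clearly, and differences are log2 of hypoxia over normoxia after quantile normalization unless said otherwise. The value after ± is the standard deviation (SD) or standard error (SE) over replicate spots of an array. It covers the variation between spots inside an array. Differences between the arrays in labelling, hybridisation or scanning, and those between cultures or isolations, are left out. SD, SE and the spot ranges given below come from the processed signal before normalization. How often the spot ranges of the arrays were apart over all probes was not counted. miR-152-3p was the only member at the study's 2-fold threshold, at 1.00 ± 0.046 (SE), or 2.00-fold higher in hypoxic exosomes, and miR-301a-3p was the lowest, at −0.65 ± 0.080 (SE), or 1.56-fold lower. The other 4 members lay between −0.10 and 0.21.

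Read against the array, 1 of 6 measured members was at least 2-fold higher, where 18.3% of the 180 miRNAs measured on both arrays were. Of the 6, 0 were at least 2-fold lower, where 10% of all measured miRNAs were, and 3 of 6 had a difference below 0, where 42.8% of all did. The median difference was 0.046 over the 6 members and 0.17 over all 180, and without normalization it was −0.43 and −0.27. Among the differences of the 180, miR-301a-3p stood at percentile 18.6, miR-148a-3p at 37.5, miR-130b-3p at 41.4, miR-130a-3p at 47.5, miR-148b-3p at 51.9 and miR-152-3p at 81.9. The members thus spanned most of the order without reaching either end.

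**Figure D1:**
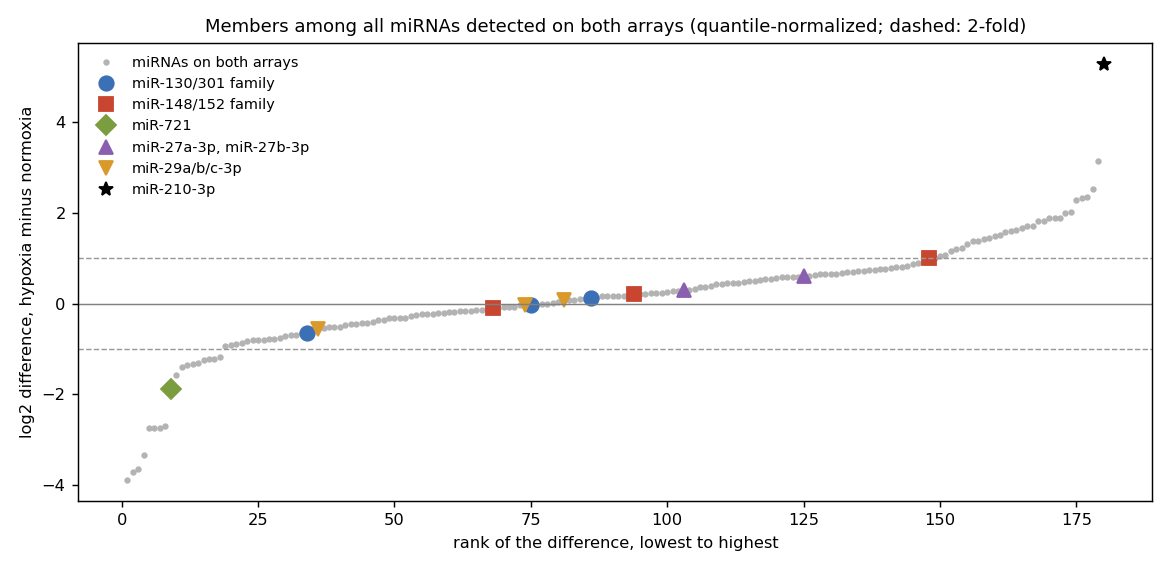
Log2 difference, hypoxia minus normoxia after quantile normalization, of the 180 miRNAs detected on both arrays (grey points), in order from the lowest. Family members are marked by coloured symbols, with miR-152-3p on the upper 2-fold line at percentile 81.9 and miR-301a-3p lowest of the members at percentile 18.6.

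Facts of the arrays bear on these values. Replicate spots varied by 9.68% in normoxia and by 15.8% in hypoxia (median coefficient of variation, from the software), and the software marked the hypoxia array for evaluation, with this measure and the labelling spike-ins outside their quality ranges. Spots well above background made up 9.96% and 8.59% of miRNA spots. Of the 210 member spots, 10 in normoxia and 6 in hypoxia were outliers and were left out. The arrays shared a slide and a scan, and the position on the slide cannot be told apart from the condition. Of 5 mesenchymal marker miRNAs, 4 were detected on both arrays and miR-145a-5p on neither, and their summed signal was 949 in normoxia and 930 in hypoxia. Markers of other cells were brighter in normoxia, with summed signals of 707 and 42.9 for 3 erythroid, 48.4 and 6.23 for 3 haematopoietic, 33.3 and 4.19 for 1 endothelial and 93.1 and 9.48 for 1 liver miRNA. Of these 8, miR-142a-3p and miR-142a-5p (haematopoietic) and miR-486a-5p (erythroid) were detected on neither array, and the others were detected in normoxia. In hypoxia 1 of the 8, the red cell miRNA miR-451a, was detected. The 8 epithelial, muscle and neural markers were detected on neither array, as were 1637 of all 1881 miRNAs. The part of these RNAs in the members' differences was not tested.

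In the miR-130/miR-301 family, miR-130a-3p, which was described as a repressor of antiangiogenic homeobox genes in endothelial cells, was bright on both arrays. On its first probe the normoxia spots ran from 6175 over a median of 6740.3 to 7641 and the hypoxia spots from 3952 over 6563 to 8181. On its second probe they ran from 8088 over 10322 to 11179 and from 10092 over 10560.5 to 10940. The ranges overlapped on both probes, with the hypoxia spots more scattered on the first and less on the second. The probe means were 6815 ± 404 (SD, n = 14 spots) and 6302 ± 1077 (SD, n = 14 spots) on the first probe, and 10044 ± 944 (SD, n = 14 spots) and 10555 ± 291 (SD, n = 12 spots) on the second. The difference was 0.11 ± 0.040 (SE), or 1.08-fold, with 0.00 and 0.23 on the probes. The 0.00 is set by quantile normalization, because the first probe held the same rank on both arrays. Before normalization the probes gave −0.11 and 0.072. The sign of the difference of miR-130a-3p was not settled by these arrays, being negative without normalization, at −0.021.

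miR-130b-3p, which differs from miR-130a-3p at 2 bases, was dim. Its brighter probe ran from 65.8 over a median of 87.9 to 101 in normoxia and from 47.1 over 57.8 to 67.7 in hypoxia. The hypoxia spots lay mostly below the normoxia spots, with a small overlap. In normoxia the mean was 87.2 ± 8.63 (SD, n = 15 spots), and in hypoxia it was 56.0 ± 6.52 (SD, n = 14 spots). On the dimmer probe the means were 36.3 ± 5.00 (SD, n = 15 spots) and 26.3 ± 7.08 (SD, n = 14 spots), and the ranges overlapped. Before normalization the miRNA was thus 1.47-fold lower in hypoxia, at −0.55. Quantile normalization raised dim signals of the hypoxia array and lowered those of the normoxia array, and moved it by 0.53, to −0.022 ± 0.065 (SE). The SE is that of the signal before normalization and does not cover this move.

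miR-301a-3p, known as an activator of NF-κB signalling through its repression of Nkrf, was lower in hypoxic exosomes. Its brighter probe ran from 50.1 over a median of 61.2 to 65.7 in normoxia and from 18.8 over 30.1 to 34.5 in hypoxia. Every hypoxia spot lay below every normoxia spot. The normoxia mean was 60.1 ± 5.02 (SD, n = 13 spots) and the hypoxia mean 27.9 ± 5.47 (SD, n = 15 spots), which is 2.15-fold lower before normalization, at −1.11. After quantile normalization the difference was −0.65 ± 0.080 (SE), less than 2-fold. It was smaller still under normexp, a background correction that pulls dim signals together, at −0.22, without a filter on dim probes, at −0.21, and when all probes set a 75th percentile scaling, at −0.18. The second probe had 9 of 15 spots above background in normoxia and 3 of 15 in hypoxia, with means of 16.5 ± 3.74 and 10.6 ± 4.42 (SD), and gives no fold. After quantile normalization this probe read 13.7 in normoxia and 13.4 in hypoxia. The hypoxia value is under that array's lowest detected normalized signal, 16.1, so whether the probe repeats the difference of the first cannot be told.

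miR-301b-3p, whose gene neighbours Mir130b, gave no measurable signal. None of the spots of its 4 probes was well above background on either array, and the probe means lay between 0.84 and 3.95 in normoxia and between −0.41 and 2.70 in hypoxia. It has no fold, and its level is not known beyond having no spot well above background. For scale, the lowest signals of detected probes were 14.5 in normoxia and 13.5 in hypoxia. Detection went by the share of spots above background, so these signals are not strict limits.

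In the miR-148/miR-152 family, miR-152-3p, known as a repressor of Dnmt1, was higher in hypoxic exosomes on both of its probes. The first ran from 126 over a median of 156 to 165 in normoxia and from 122 over 248 to 279.8 in hypoxia. The second ran from 193 over 228 to 273 in normoxia and from 323 over 405 to 452 in hypoxia. On the second probe every hypoxia spot lay above every normoxia spot, and on the first the ranges overlapped. The means were 152.3 ± 11.3 (SD, n = 14 spots) and 232 ± 44.4 (SD, n = 15 spots) on the first probe and 229 ± 21.7 (SD, n = 15 spots) and 391 ± 36.4 (SD, n = 15 spots) on the second. The probes gave differences of 0.96 ± 0.077 and 1.04 ± 0.049 (SE), which lie on either side of the 2-fold threshold. Without normalization the miRNA stood at 0.69, or 1.61-fold higher, and it was also under 2-fold with the hybridization spike-ins, at 0.81, with the normexp background correction, at 0.78, and with the software's summed signal, at 0.94.

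miR-148a-3p, which is abundant in liver and is known to target the LDL receptor there, was near the detection limit. Its second probe ran from 25.0 over a median of 34.0 to 39.3 in normoxia and from 9.19 over 18.1 to 28.6 in hypoxia. The hypoxia spots were lower with some overlap, and 11 of 15 of them were well above background against 15 of 15 in normoxia. The normoxia mean was 33.7 ± 4.41 (SD, n = 15 spots) and the hypoxia mean 18.7 ± 4.98 (SD, n = 15 spots), or 1.80-fold lower before normalization. Normalization moved the difference by 0.75, the most among the members, from −0.85 to −0.10 ± 0.11 (SE). The SE is that of the signal before normalization and does not cover this move. The first probe had 9 of 15 spots above background in normoxia and 0 of 15 in hypoxia and gives no fold.

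miR-148b-3p, which differs from miR-148a-3p at 2 bases, was measured by 1 of its 2 probes. That probe ran from 34.4 over a median of 42.3 to 53.8 in normoxia and from 18.5 over 34.6 to 45.4 in hypoxia. The ranges overlapped, and the hypoxia spots were more scattered. The normoxia mean was 42.2 ± 4.43 (SD, n = 15 spots) and the hypoxia mean 34.0 ± 7.69 (SD, n = 15 spots). The difference was 0.21 ± 0.093 (SE) after quantile normalization and −0.31 without it. The other probe read 3.07 in normoxia and 1.81 in hypoxia, with no spot above background.

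**Figure D2:**
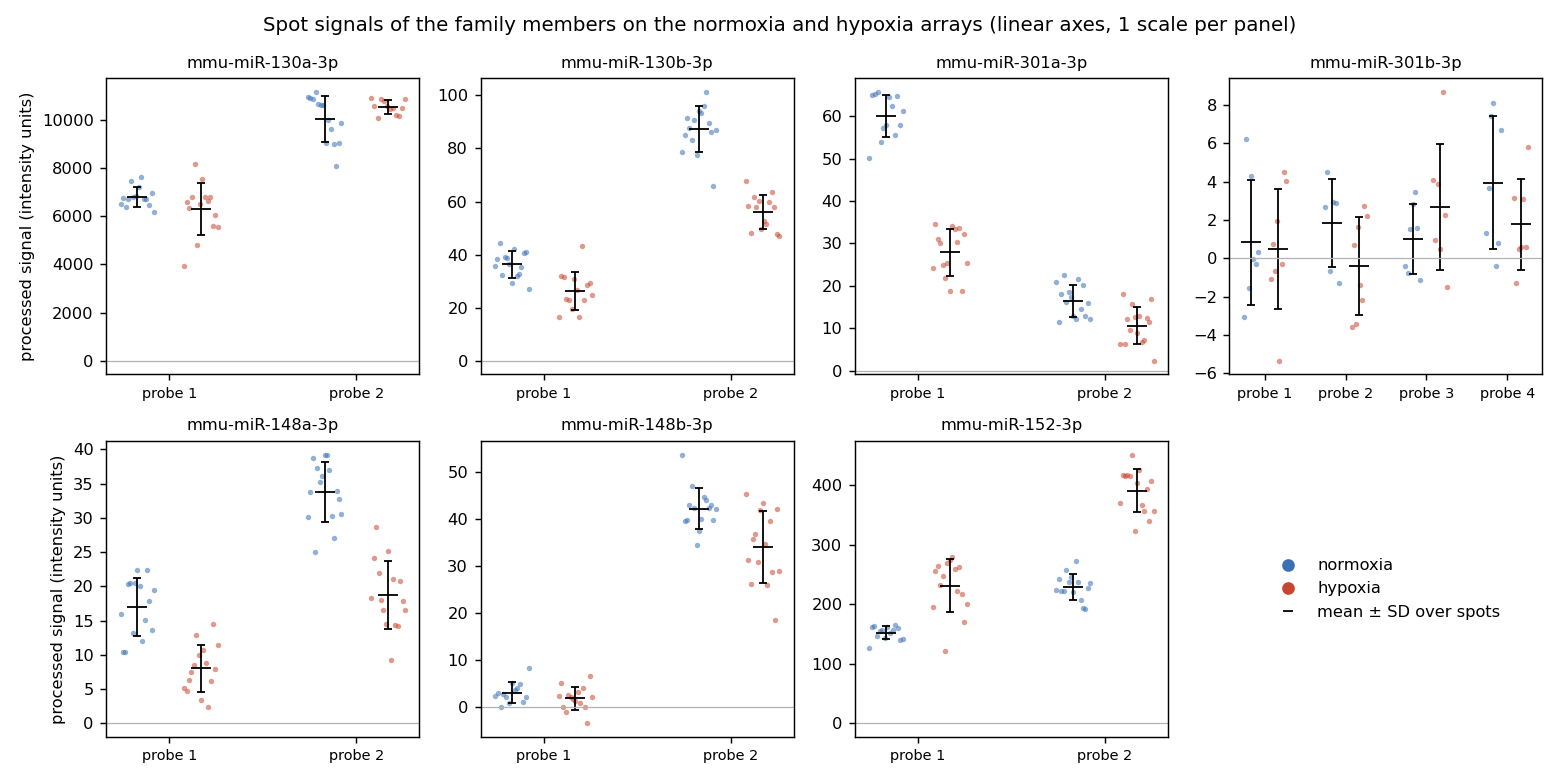
Processed signal (linear intensity units, a separate scale in each panel) of every unflagged spot of the 16 member probes on the normoxia and hypoxia arrays, with the mean ± SD over spots. Spots of the arrays are apart for the first probe of miR-301a-3p and the second probe of miR-152-3p, and the spots of miR-301b-3p scatter about 0. The signals are before normalization, and how often other probes were apart was not counted.

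The directions of miR-152-3p and miR-301a-3p were the same in odd and even spots of the same arrays. With the spots of each probe divided into odd and even ones, miR-152-3p gave 1.02 and 1.00 and miR-301a-3p gave −0.59 and −0.64. miR-130a-3p gave 0.10 and 0.19 and miR-148b-3p gave 0.12 and 0.25. miR-130b-3p gave −0.040 and 0.020, and miR-148a-3p gave −0.34 and −0.0018, so the value of these 2 depended on the spots used. These are repeats of printing on the same array, not of the experiment. miR-130a-3p and miR-148b-3p kept their sign here too, although both were negative without normalization. An equal sign in odd and even spots therefore does not settle a direction.

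The choice of scaling set the direction of 4 members. Over 6 scalings (quantile, none, the 75th percentile of all probes or of the probes detected on both arrays, and the labelling or hybridization spike-ins, which are RNAs added as controls), miR-152-3p lay between 0.69 and 1.61 and miR-301a-3p between −1.11 and −0.18. Both kept their direction, although the labelling spike-ins were out of range on the hypoxia array. miR-130a-3p lay between −0.021 and 0.91, miR-130b-3p between −0.55 and 0.37, miR-148a-3p between −0.85 and 0.079 and miR-148b-3p between −0.31 and 0.61, and each of these 4 changed sign. Without normalization the median of all 180 miRNAs was −0.27. Relative to the median of all miRNAs, a measure that 1 factor per array cannot move, miR-152-3p was at 0.96, miR-130a-3p at 0.25, miR-148b-3p at −0.044, miR-130b-3p at −0.28, miR-148a-3p at −0.58 and miR-301a-3p at −0.84. Relative to the same median after quantile normalization, these were 0.83, −0.055, 0.038, −0.19, −0.27 and −0.81, so miR-130a-3p and miR-148b-3p changed sign.

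**Figure D3:**
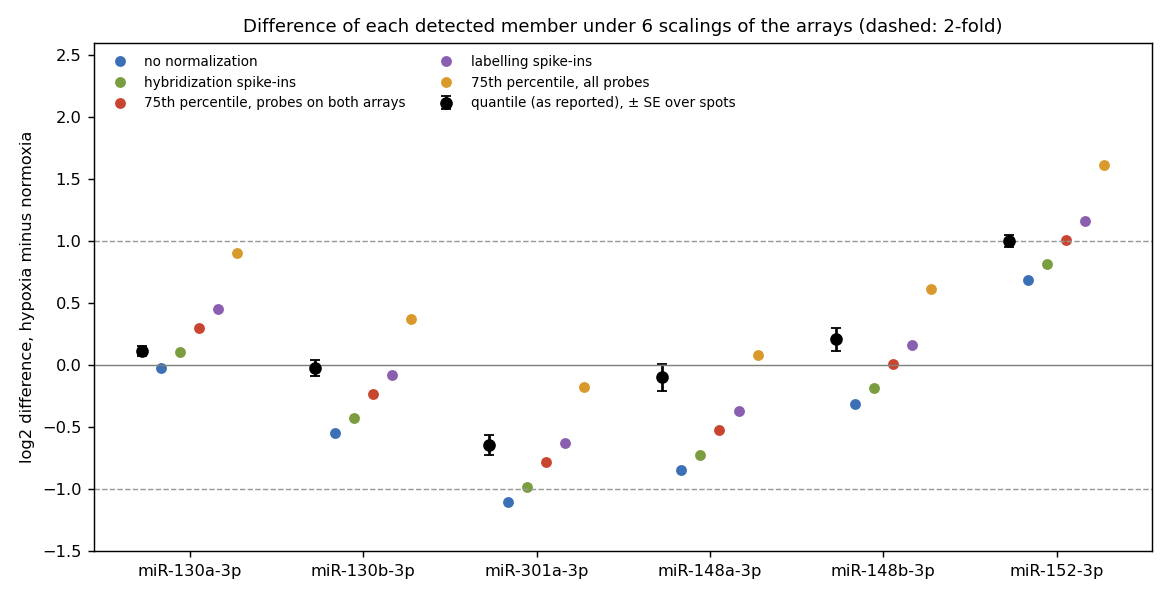
Log2 difference, hypoxia minus normoxia, of the 6 detected members under 6 scalings of the arrays, with the quantile-normalized value in black (± SE over spots) and dashed lines at 2-fold. Values of miR-152-3p lie above 0 and those of miR-301a-3p below 0 under all 6, while the other 4 members cross 0.

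The members of a family gave unequal differences. The difference of miR-152-3p exceeded that of miR-148b-3p by 0.79 ± 0.10 (SE) after quantile normalization and by 1.00 without it, although their sequences differ at 2 bases. It exceeded that of miR-148a-3p by 1.10 ± 0.12 (SE), and by 1.53 without normalization. In the other family, miR-130a-3p exceeded miR-301a-3p by 0.76 ± 0.090 (SE), by 1.08 without normalization, by 0.34 under normexp and by 0.32 without a filter on dim probes. miR-130a-3p and miR-130b-3p were 0.13 ± 0.076 (SE) apart after quantile normalization and 0.53 apart without it. These ratios between members show unequal readings on a single pair of arrays, and whether they exceed the spread between cultures was not tested.

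The families were also read by their medians. The median difference was −0.022 for the 3 measured miR-130/miR-301 members and 0.21 for the 3 miR-148/miR-152 members, against 0.17 for all miRNAs measured on both arrays. Without normalization the medians were −0.55 and −0.31 against −0.27. The gap of 0.23 between the families was smaller than the spread inside either of them. It was 0.062 under normexp and 0.55 with the software's summed signal. When every spot had to be above background it was 0.63, a setting that left miR-148a-3p without a value.

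**Figure D4:**
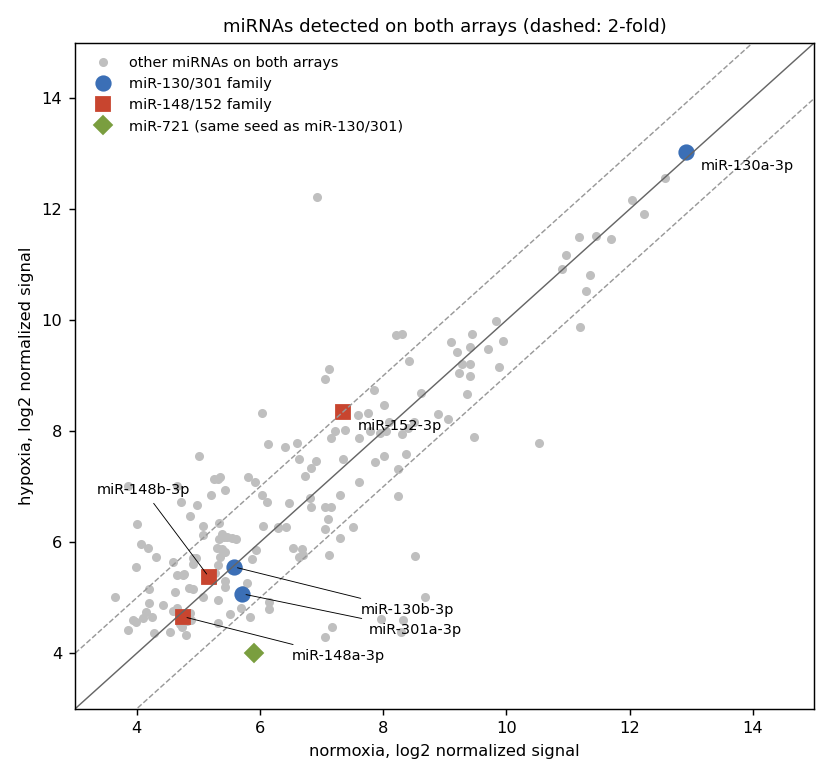
Log2 normalized signal in hypoxia against normoxia for the 180 miRNAs detected on both arrays, with the line of equality and dashed 2-fold lines. miR-130a-3p lies near the line of equality at the bright end, miR-152-3p on the upper 2-fold line, and the other measured members among the dim miRNAs.

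Other miRNAs on the array carry the seed of miR-130/miR-301. The RefSeq table holds 7 miRNAs with AGUGCAA at bases 2 to 8, of which 3 are members, and all 7 are on the array. The seed of miR-148/miR-152 is held by 3, all of them members. mmu-miR-721 is shown because it was the only one of the other 4 with signal, and lies at chr5:136375777-136375797 on the minus strand within Cux1, which encodes a homeobox transcription factor.
mmu-miR-721: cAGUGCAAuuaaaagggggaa

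miR-721 was lower in hypoxic exosomes on all 4 of its probes. On the probe measured on both arrays the spots ran from 50.6 over a median of 72.7 to 77.3 in normoxia and from 4.10 over 15.5 to 23.2 in hypoxia. On each probe every hypoxia spot lay below every normoxia spot before normalization. How often this held over all probes was not counted. Without normalization 117 of the 180 miRNAs measured on both arrays had a difference below 0. The probe measured on both arrays gave a difference of −1.89 ± 0.31 (SE), or 3.70-fold lower, with 4 of 7 hypoxia spots well above background. Its hypoxia mean of 13.5 was the lowest of any probe detected on that array, so the fold lies at the edge of detection. Another miR-721 probe, with a mean of 14.8 there and 3 of 7 spots above background, was not called detected. The other 3 probes were detected in normoxia only, and miR-721 was at least 3.43-fold, at least 3.35-fold and at least 3.58-fold lower on them. These bounds were taken against the higher of the hypoxia array's lowest detected signal and the probe's own signal there. That lowest detected signal, 16.1 after normalization, was the one of the measured miR-721 probe itself. It set the bounds of 3.43-fold and 3.35-fold, so these are not independent of that probe. The bound of 3.58-fold came from its probe's own hypoxia signal, 18.3. By its measured probe miR-721 stood at percentile 4.72 of the 180 differences, and under normexp it was at −0.62, less than 2-fold. Against miR-130a-3p, with 15 of 21 bases the same, its difference was lower by 2.00 ± 0.31 (SE). miR-130c, miR-6341 and miR-6389, which share the seed too, had no spot above background on either array.

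**Figure D5:**
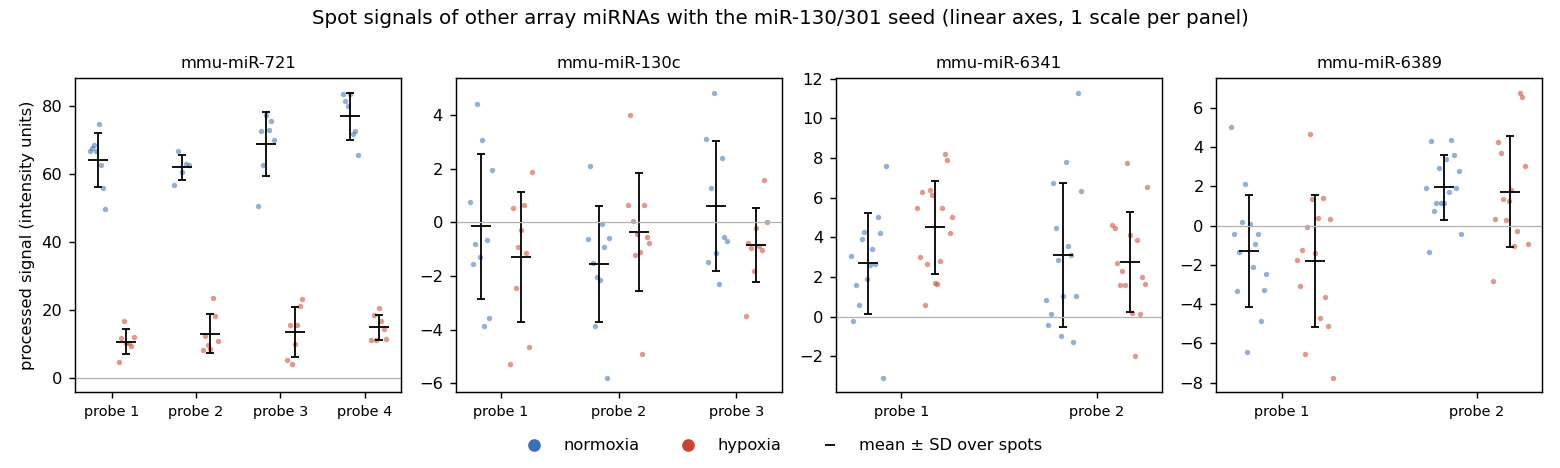
Processed signal (linear intensity units, a separate scale in each panel) of every unflagged spot of the other 4 array miRNAs with the miR-130/miR-301 seed, with the mean ± SD over spots. The hypoxia spots of miR-721 lie below its normoxia spots on all 4 probes, while miR-130c, miR-6341 and miR-6389 scatter near 0 on both arrays. Signals are before normalization, and how often the spots of other probes were apart was not counted.

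The opposite arms of the hairpins, which are the strands usually discarded when a miRNA is loaded, were not detected. None of the 18 probes for the 7 opposite arms of the members had a spot above background, with probe means from −3.07 to 1.66 in normoxia and from −3.94 to 2.34 in hypoxia. Among the members and their opposite arms, signal well above background was thus limited to 3′ arms. Over the whole array 1637 of 1881 miRNAs were detected on neither array.

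Other miRNAs known for the same targets were read beside the members. Of miR-27a-3p and miR-27b-3p, which also target Pparg, 0 of 2 were 2-fold apart, at 0.30 and 0.60, and without normalization they were at −0.032 and 0.12. Of the 3 members of miR-29, which target the DNA methyltransferases Dnmt3a and Dnmt3b, 0 were 2-fold apart, with miR-29a-3p at 0.076, miR-29b-3p at −0.57 and miR-29c-3p at −0.037. All 3 were below 0 without normalization, at −0.28, −0.76 and −0.60. For scale, miR-210-3p, the classical hypoxia-induced miRNA, was at 5.30 on the same arrays, and miR-152-3p at 1.00.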

How the data were processed

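Deposited intensity values of 2 arrays were used, 1 for normoxia and 1 for hypoxia. The authors made them with Feature Extraction 11.5.1.1 (per the file headers), software that corrects for background, marks outlier spots and decides which spots stand well above background. These deposited flags are 0 or 1. The methods name Agilent's miRNA labelling kit, whereas the labels describe reverse transcription of total RNA. The deposited value table equalled the processed signal (largest difference 0).

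Spots that carried 1 of 4 outlier flags were dropped, the remaining spots of a probe averaged, and probe means quantile-normalized between arrays as the study states. Differences were averaged over the probes of a miRNA that both arrays detected. A probe detected on 1 array gets a bound against the lowest detected normalized signal of the other array (12.0 in normoxia, 16.1 in hypoxia) or its own signal there, whichever is higher, and no fold where that bound is under 1-fold. No test was possible with a single array of each condition, and the number of arrays limits precision. All members, their opposite arms, miRNAs with a member's seed and the related lists were named. The members and lists, marker miRNAs included, were chosen with earlier results of these data known. Alternatives were 5 other scalings, normexp (offset 50, limma 3.58.1, R 4.3.3), spot median, brightest probe, other filters, the software's summed signal and the value table. Scripts used Python 3.11.15, numpy 2.4.6, pandas 2.3.3 and matplotlib 3.10.9 and were tested on simulated data. Sequences and gene bounds are of GRCm38.p6, and the array design names mm9.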

Additional observations from a re-analysis of the deposited data

How the results depend on the processing

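No paired analysis was possible because there was a single array of each condition and nothing was tested, and leaving out a replicate does not apply. Of 65 member values under alternatives, 43 stayed within the spot SD of the reported value, 16 moved beyond it and 6 changed sign. Without normalization miR-130a-3p was −0.021, miR-148b-3p −0.31, the family medians −0.55 (miR-130/miR-301) and −0.31 (miR-148/miR-152) and the median of all miRNAs −0.27, with 0 members at least 2-fold higher, 1 (miR-301a-3p) at least 2-fold lower and 5 below 0, against 20, 36 and 117 of all miRNAs. Scaling to the hybridization spike-ins gave −0.19 for miR-148b-3p, family medians of −0.43 and −0.19, −0.14 for all, 0 members at least 2-fold higher and 30 of all at least 2-fold lower. With all probes used for a 75th percentile scaling, there was a value of 0.37 for miR-130b-3p, 0.079 for miR-148a-3p, family medians of 0.37 and 0.61, 0.66 for all and 1 member below 0, with 58 of all higher, 10 lower and 43 below 0. Without a filter on dim probes, which sets undetected probes to the lowest detected signal, miR-148a-3p was 0.045, miR-301a-3p −0.21 and the miR-130/miR-301 median 0.046; even spots alone gave 0.020 for that median. Requiring every spot above background put miR-148a-3p in normoxia only (1 member) with no difference, and gave 0.60 for the miR-148/miR-152 median, 0.63 between the families and 9 of all lower. Normexp left 0 members and 11 of all miRNAs at least 2-fold higher and 11 lower, with miR-301a-3p at −0.22 and miR-721 at −0.62. The gap between the families was then 0.062. The software's summed signal left 0 members at least 2-fold higher and 0.55 between the families. The cause of these moves was not tested, beyond what a setting fixes by construction. miR-152-3p stayed above 0 (0.69 to 1.61) and miR-301a-3p below 0 (−1.11 to −0.18) under all 11 alternatives besides the value table; that table repeats the scanner signal and says nothing about stability. Differences between members, miR-721, odd or even spots and the count below 0 were added after seeing the data. Normexp was run on the median and not the mean pixel signal. Dim signal limits miR-148a-3p, miR-148b-3p, miR-130b-3p and miR-301a-3p, and miR-301b-3p altogether.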
